A study of Mus musculus with 6 samples.

Results

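The genes described here are cytokine genes that epithelial cells can express: Il1a, Il1b, Il1rn, Il18, Il33, Tnf, Il23a, Tslp, Csf1 and Il34. They were listed by symbol, and 9 of the 10 had a row among the 19739 genes of the expression table; Il1b was not analysed here. They were selected on measured values as well as on symbol, since log2 differences between the same Control and EFNA3 libraries were known when the list was drawn up. The differences between groups are therefore given as descriptions and without p-values. RNA was sequenced from primary mouse mammary luminal epithelial cells, the inner cell layer of the duct, from wild-type tissue. The cells had been sorted by flow cytometry and grown with 5% serum, EGF, FGF2, heparin and the ROCK inhibitor Y-27632, a supplement that both groups share. All cultures were deprived of serum for 12 hours and then kept 24 hours in serum-free medium. The 3 Control libraries received EFNA3 protein at 0 µg/ml and the 3 EFNA3 libraries at 1 µg/ml. EFNA3 (ephrin-A3) is normally tethered to the cell membrane and binds Eph receptors; here the protein was added to the medium. The labels give no strain, age or number of mice and do not say that replicates came from separate animals, so the spread between libraries may be technical.

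Cytokines of the interleukin-1 family act through paired receptors. IL-1α and IL-1β engage IL1R1 together with its accessory chain, while the product of Il1rn, the IL-1 receptor antagonist, occupies IL1R1 without signalling. IL-18 and IL-33 belong to the same family and use their own receptors, and epithelial cells are a known source of IL-33, which is stored in the nucleus and released on damage. Il23a encodes the p19 chain, which forms IL-23 only when joined to p40, the product of Il12b. TSLP is an epithelial cytokine that acts on dendritic and other immune cells, TNF acts through a pair of receptors on most cells, and CSF1 and IL-34 share CSF1R, the growth factor receptor of macrophages.

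Promoters are shown for Il1rn, Csf1 and Tnf, with Il1a as the low agonist of the same receptor as Il1rn. Those of Il33 and Il18 are described without their sequence. RefSeq promoter windows on build GRCm38.p6 matched 7 of the 10 symbols, of which 6 had a row in the expression table. Il23a, Tslp and Il34 had no entry. Each sequence is the 250 bases before the annotated transcription start, in the direction of the gene. Capitals mark matches, on either strand, to a loose κB-type pattern, to the AP-1 pattern or to a TATA box. The κB-type pattern searched was GGGNNNNNCC. The AP-1 pattern searched was TGANTCA, which reads the same on both strands. The letters searched for the TATA box were TATAAA.
Il1rn, first of 3 annotated starts, plus strand, chr2:24336610-24336859: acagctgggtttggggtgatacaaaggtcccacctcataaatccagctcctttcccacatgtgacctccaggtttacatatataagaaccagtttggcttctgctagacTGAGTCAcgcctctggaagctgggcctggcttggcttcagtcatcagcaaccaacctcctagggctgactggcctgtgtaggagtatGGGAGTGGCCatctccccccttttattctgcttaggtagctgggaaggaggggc
Il1rn, the third start, plus strand, chr2:24345121-24345370: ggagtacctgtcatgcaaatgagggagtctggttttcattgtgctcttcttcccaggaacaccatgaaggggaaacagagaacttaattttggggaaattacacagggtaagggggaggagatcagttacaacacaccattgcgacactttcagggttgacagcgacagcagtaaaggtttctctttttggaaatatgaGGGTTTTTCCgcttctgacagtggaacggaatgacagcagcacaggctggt
Csf1, minus strand, chr3:107760470-107760719: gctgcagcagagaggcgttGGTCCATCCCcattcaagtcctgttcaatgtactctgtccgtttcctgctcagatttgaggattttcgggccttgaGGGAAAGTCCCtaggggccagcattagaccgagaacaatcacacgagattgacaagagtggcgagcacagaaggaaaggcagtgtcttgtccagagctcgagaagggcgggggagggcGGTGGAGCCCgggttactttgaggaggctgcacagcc
Tnf, minus strand, chr17:35202008-35202257: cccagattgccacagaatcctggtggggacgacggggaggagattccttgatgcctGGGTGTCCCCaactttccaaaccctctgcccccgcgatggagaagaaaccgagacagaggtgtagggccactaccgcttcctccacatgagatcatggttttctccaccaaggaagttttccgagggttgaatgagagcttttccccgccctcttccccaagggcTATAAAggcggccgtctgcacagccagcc
Il1a, minus strand, chr2:129309973-129310222: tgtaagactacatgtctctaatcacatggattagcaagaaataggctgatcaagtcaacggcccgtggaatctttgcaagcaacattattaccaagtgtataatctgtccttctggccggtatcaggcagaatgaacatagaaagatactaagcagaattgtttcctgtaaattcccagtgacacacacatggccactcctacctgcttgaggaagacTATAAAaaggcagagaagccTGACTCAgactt

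The first Il1rn window held an AP-1 match starting 141 bases before the start and a κB-type match starting 54 bases before it. The window of the third start held a κB-type match 51 bases before it, and that of the second start, which overlaps the third, held none of the 3 patterns. In the Csf1 window 4 κB-type matches were found, and those starting at 155 and 154 bases before the start, on opposite strands, overlap. The Tnf window had a κB-type stretch 194 bases before the start that reads as a match on both strands, and a TATA box match 29 bases before the start. Il1a had a TATA box match at 32 and an AP-1 match at 12 bases before the start, and no κB-type match. The windows of Il33 and Il18, not shown, held TATA box matches and no κB-type or AP-1 match. Those of Il33 lay 203 bases before the first start and 29 before the second, and that of Il18 lay 175 bases before its start. Among all 32851 promoter windows of this length, 45.8% held the κB-type pattern, 6.75% the AP-1 pattern and 12.4% the TATA box pattern. A match describes the letters only.

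The Control cultures expressed the IL-1 receptor antagonist gene at the highest level per kb of the 9 cytokine genes. Levels between genes were compared after subtracting the log2 of the length in kb of the longest protein-coding transcript. On this scale Il1rn stood at 9.90 ± 0.07 per kb in Control (log2, SD, n = 3). Il33 followed at 8.44 ± 0.12, Csf1 at 8.42 ± 0.04 and Tnf at 7.96 ± 0.06 (log2 level per kb). Il23a lay between the abundant and the scarce genes, at 5.51 ± 0.16 per kb. The scarce genes were Il34 at 4.54 ± 0.76, Il18 at 4.01 ± 0.49, Tslp at 3.83 ± 0.46 and Il1a at 2.70 ± 0.78 (log2 level per kb). In this order Il33 and Csf1 overlapped over the 3 Control libraries, as did Il34 and Il18, and Il18 and Tslp. All other neighbours were apart in all 3 libraries. Tslp and Il1a were only just so, with the lowest Tslp library at 3.394 and the highest Il1a library at 3.391. With the median length of the protein-coding transcripts of each gene in place of the longest, Il1rn stood at 10.77, Il33 at 10.25, Csf1 at 9.93 and Tnf at 8.04 per kb, so levels depended on the length chosen while the order of the 9 genes did not. Il33 and Csf1 then no longer overlapped. As each Control library was left out, 7 of the 9 places in the order were kept. Without any subtraction of length, Csf1 at 10.48 lay above Il33 at 9.79 in Control means, and Tslp at 4.00 above Il18 at 3.83 (log2).

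**Figure D1:**
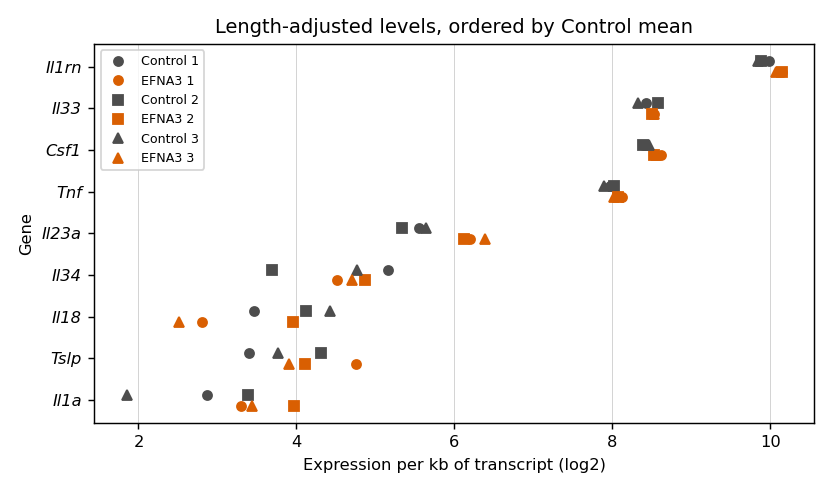
Expression per kb of transcript (x axis, log2) of the 9 cytokine genes (y axis, ordered by Control mean); each symbol is 1 library, grey for Control and orange for EFNA3. Il1rn lies highest, Il33, Csf1 and Tnf form a group near 8, and the symbols of Il34, Il18, Tslp and Il1a scatter widely.

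The scatter between libraries was widest among the genes at the low end of this order. Pooled over the groups, the SD of a library was 0.04 for Csf1, 0.06 for Tnf and 0.06 for Il1rn, against 0.55 for Il34, 0.61 for Il1a and 0.64 for Il18 (log2). Tested genes within 0.5 log2 units of Il23a had a median SD of 0.25, and Il23a itself had 0.15. For Il34 the SD of 0.55 compared with a median of 0.32 among 1220 genes of like level.

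In EFNA3 cultures 8 of the 9 cytokine genes had the higher group mean, and 4 of them, Il23a, Il1rn, Csf1 and Tnf, had all 3 EFNA3 libraries above all 3 Control libraries. Il18 alone had the lower mean. Among all 16394 genes tested, 8.53% were higher without overlap and 7.45% lower without overlap, and 50.8% had a higher mean; since the contrast was known when the list was made, the members' counts stand beside these shares as a description. The median difference was 0.16 for the 9 genes and 0.00 for all tested genes (log2). No gene of the 16394 passed limma's test with Benjamini-Hochberg adjustment (0%; smallest adjusted p = 0.55), so none of these cytokine genes did, while 1104 (6.73%) stood at an unadjusted p under 0.05. With 3 libraries a group, the smallest p an exact permutation test allows is 0.1.

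**Figure D2:**
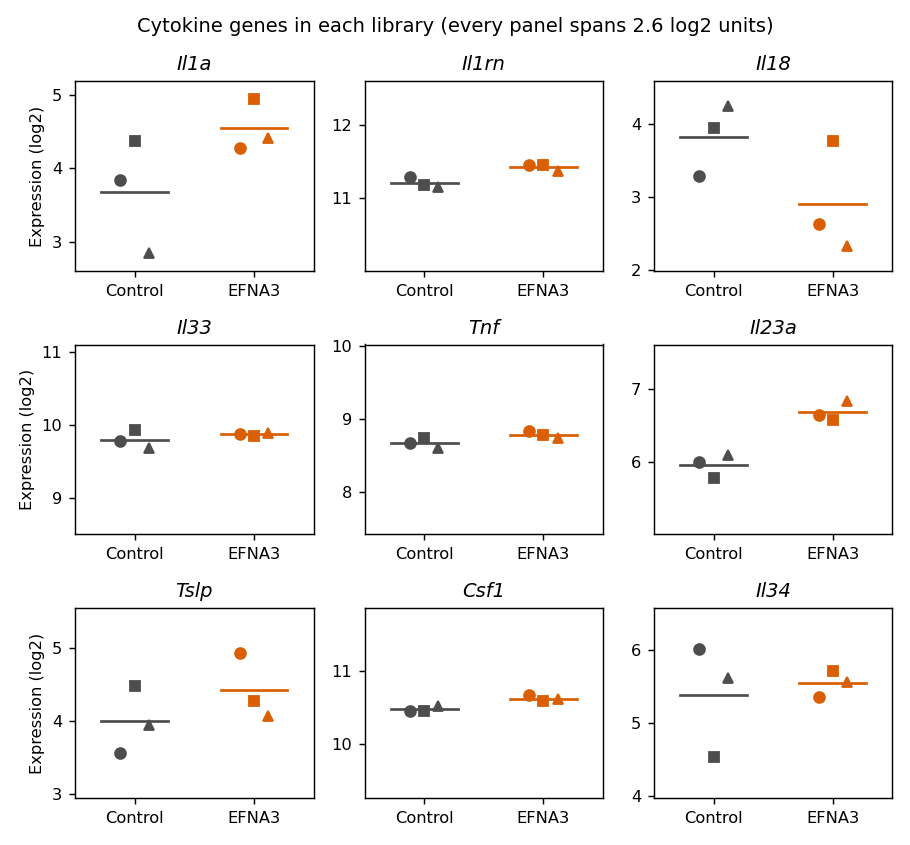
Deposited log2 expression (y axis) of each cytokine gene in the 3 Control (grey) and 3 EFNA3 (orange) libraries (x axis); circle, square and triangle are replicates 1, 2 and 3, and lines are group means. Panels have equal spans, so the separation of Il23a and the wide scatter of Il1a, Il18, Tslp and Il34 can be compared directly.

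Il23a, the p19 chain of IL-23, showed the clearest separation. It stood at 5.999, 5.78 and 6.09 in Control replicates 1 to 3 and at 6.64, 6.57 and 6.83 in EFNA3 replicates 1 to 3 (log2). The lowest EFNA3 library lay 0.49 above the highest Control library. The group means differed by 0.73 (SE 0.17), a 1.66-fold higher level with EFNA3. This difference ran from 0.64 to 0.79 as each library was left out. Il12b, which encodes the partner chain p40, and the receptor chain gene Il12rb1 had no row in the table used here, and Il23r, the other receptor chain, was below the limit for testing, at 0.00 to 2.52 in Control and 1.27 to 3.09 in EFNA3 libraries.

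Il1rn, the antagonist, stood at 11.29, 11.19 and 11.15 in Control and at 11.45, 11.45 and 11.37 in EFNA3 replicates 1 to 3 (log2). Here too the groups were apart, by 0.08 between the nearest libraries. The means differed by 0.22 (SE 0.07), which is 1.16-fold. Its agonist Il1a was read at 3.84, 4.37 and 2.84 in Control and 4.28, 4.96 and 4.41 in EFNA3 libraries (log2). The groups of Il1a overlapped, because Control replicate 2 lay above EFNA3 replicate 1. The difference of 0.87 (SE 0.43) was numerically larger than that of Il23a but leaned on Control replicate 3, without which it was 0.44.

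Of the other interleukin-1 family genes, Il33 was abundant and differed little. Its levels were 9.77, 9.92 and 9.67 in Control and 9.88, 9.84 and 9.88 in EFNA3 libraries (log2), with means 0.08 apart (SE 0.09) and overlapping groups. All 3 EFNA3 libraries lay inside the Control range, and the difference was 0.15 when Control replicate 2 was left out and 0.02 when Control replicate 3 was. Il18, whose precursor is cleaved by caspase-1, was near the lower limit of the tested genes, with 3 of 6 libraries at or above it. It stood at 3.29, 3.95 and 4.25 in Control and at 2.63, 3.78 and 2.34 in EFNA3 libraries (log2), a difference of -0.91 (SE 0.49). EFNA3 replicate 2 lay within the Control range and the other two below it; the difference became -1.35 when EFNA3 replicate 2 was left out and -0.63 when EFNA3 replicate 3 was.

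Tnf was at 8.68, 8.73 and 8.61 in Control and at 8.84, 8.78 and 8.74 in EFNA3 libraries (log2), with means 0.11 apart (SE 0.09). Its groups were apart by only 0.00087 between the nearest libraries. Tslp stood at 3.57, 4.49 and 3.94 in Control and 4.93, 4.27 and 4.07 in EFNA3 libraries (log2), and only EFNA3 replicate 1 exceeded all Control libraries. Its difference of 0.43 (SE 0.37) was 0.18 when that library was left out, and 0.21 or 0.67 when Control replicate 1 or 2 was.

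The ligands of CSF1R differed in level and in spread. Csf1 stood at 10.46, 10.46 and 10.52 in Control and at 10.68, 10.59 and 10.62 in EFNA3 libraries (log2), with 0.06 between the nearest libraries of the groups. The difference was 0.15 (SE 0.07), or 1.11-fold. Il34 ranged from 4.53 to 6.01 in Control, which enclosed its range of 5.36 to 5.71 in EFNA3 libraries (log2). Its difference of 0.16 (SE 0.36) took values of 0.47, -0.27 and 0.27 when Control replicate 1, 2 or 3 was left out, and 0.25 and 0.07 when EFNA3 replicate 1 or 2 was.

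A few libraries bear on these separations. Without Control replicate 2, the count of genes higher without overlap was 7 (Il1a, Il33 and Tslp in addition) against 11.9% of all tested genes. Il1a was also higher without overlap when EFNA3 replicate 1 was left out, and Il18 was lower without overlap when Control replicate 1 or EFNA3 replicate 2 was. EFNA3 replicate 1 departed from the others by transcript length: across genes, the Spearman correlation of its deviation from the mean of the 6 libraries with length was -0.53, while the other libraries lay between 0.04 and 0.36. Without this library the differences were 0.75 for Il23a, 0.20 for Il1rn, 0.12 for Csf1 and 0.09 for Tnf, and these genes remained without overlap. When trends with transcript length and GC share were removed from each library, Il23a differed by 0.65, Il1rn by 0.20 and Csf1 by 0.20, all without overlap, while Tnf differed by 0.05 and its groups overlapped.

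Differences between genes within a library were also described, on the scale per kb. The antagonist Il1rn exceeded the agonist Il1a by 7.12, 6.49 and 7.99 in Control and by 6.85, 6.17 and 6.63 in EFNA3 replicates 1 to 3 (log2 units). These groups overlapped. The means of 7.20 ± 0.75 and 6.55 ± 0.35 (SD, n = 3) correspond to a 147-fold and a 93.7-fold excess of antagonist RNA, or 268-fold and 171-fold with median in place of longest transcript lengths. The difference between groups in this balance, -0.65, was -0.25 when Control replicate 3 was left out and -1.005 when Control replicate 2 was. Il1rn exceeded Tnf by 2.02, 1.86 and 1.95 in Control and by 2.02, 2.08 and 2.04 in EFNA3 libraries, where the nearest libraries of the groups almost coincided. With the longest transcripts, Csf1 exceeded Il34 by 3.88 ± 0.75 in Control and 3.87 ± 0.22 in EFNA3 libraries (log2 units per kb, SD, n = 3). Il33 exceeded Il18 by 4.44 ± 0.53 and 5.43 ± 0.78, again with overlap between the groups.

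**Figure D3:**
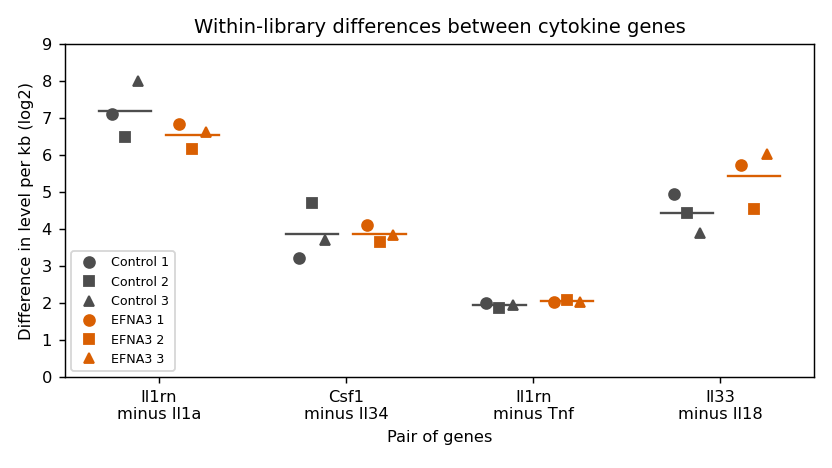
Difference in level per kb (y axis, log2) between the 2 genes of each pair (x axis) within each library; grey is Control, orange is EFNA3, symbols are replicates and lines are group means. Il1rn exceeds Il1a by at least 6.17 in every library, and the groups overlap in every pair except Il1rn minus Tnf.

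Receptors and decoys of these cytokines were read from a list of 18 genes, of which 13 were tested. Il1r1, the signalling IL-1 receptor chain, stood at 10.66 in Control and differed by -0.13 (SE 0.07), with all EFNA3 libraries below all Control libraries. The same held for Il1rl2, the IL-36 receptor chain, at -0.26 (SE 0.13), and for Ptprz1, a receptor phosphatase that binds IL-34, at -0.24 (SE 0.10). Il18r1, the IL-18 receptor chain, was higher without overlap, by 0.15 (SE 0.13), and Il18bp, the secreted decoy of IL-18, differed by -0.39 (SE 0.19) with overlap. Il18r1 was picked after its values were seen. Of the genes lower without overlap, transcript lengths were 5819 nt for Il1r1, 3908 nt for Il1rl2 and 8068 nt for Ptprz1. With the length and GC trends removed, Il1r1 differed by -0.00 and Ptprz1 by -0.06, both with overlap, and Il1rl2 by -0.21 without overlap. Leaving out EFNA3 replicate 1 gave -0.09 for Il1r1, -0.11 for Il1rl2 and -0.13 for Ptprz1, all without overlap. High values in Control were read for the syndecan gene Sdc1, at 14.11, and the TNF receptor gene Tnfrsf1a, at 11.82 (log2); their differences were 0.13 (SE 0.09) and 0.07 (SE 0.08). In all, 7 receptor genes were higher and 6 lower, with a median of 0.03, and none passed limma over all genes (adjusted p = 0.55 for Il1r1, Il1rl2, Il18bp and Ptprz1). Of the 13, 3 were lower and 1 was higher without overlap, against 7.45% and 8.53% of all tested genes. Only 1 of the 13, Ptprz1, had an unadjusted p under 0.05 in limma, as did 6.73% of all tested genes. Leaving out Control replicate 1 or 2, or EFNA3 replicate 1 or 2, brought this number of receptor genes to 0. Leaving out EFNA3 replicate 3 raised it to 3, and removing the length and GC trends gave 0. Csf1r, the macrophage receptor of CSF1 and IL-34, was low, at 4.04 to 4.62 in Control and 4.43 to 5.14 in EFNA3 libraries (log2).

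Genes for partner chains and for the maturation or release of these cytokines numbered 15 tested of 26 listed, with 11 higher, 4 lower and a median difference of 0.07. Gsdmd, the pore-forming gasdermin that caspases cleave, was the gene without overlap, 1 of 15 against 8.53% of all tested genes higher without overlap. It stood at 5.97, 5.88 and 5.69 in Control and 6.14, 6.12 and 6.18 in EFNA3 libraries (log2, difference 0.30, SE 0.17). Its groups overlapped once the length and GC trends were removed (difference 0.24). Casp1, which cleaves the IL-18 precursor, differed by 0.17 (SE 0.11), with EFNA3 replicate 1 at 10.02 and EFNA3 replicate 2 at the Control level of 9.63; without the former the difference was 0.06. Casp4 differed by 0.24 (SE 0.15) and Ninj1, a protein of plasma membrane rupture, by 0.22 (SE 0.10), both with overlap; with the trends removed Casp4 differed by 0.16 with overlap and Ninj1 by 0.11 without. Adam17, the sheddase of TNF, stood at 12.09 in both groups with a difference of 0.00 (SE 0.07), and the related protease gene Adam10 differed by -0.11 (SE 0.10). No gene of this list stood at an unadjusted p under 0.05, against 6.73% of all tested genes. With Control replicate 3 or EFNA3 replicate 2 or 3 left out, 1 did. The inflammasome sensor gene Nlrp3 had no row in the table used here, and Aim2 and Nlrc4 were below the limit for testing.

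All 27 listed genes of signal transduction below the IL-1, TNF and other cytokine receptors, Stat5a and Stat5b among them, were tested. Here 20 were lower and 7 higher, with a median of -0.07 (log2). Traf6 at -0.16 (SE 0.09), Tab2 at -0.14 (SE 0.08) and Tyk2 at -0.17 (SE 0.08) were lower without overlap; the first pair act between MyD88 and NF-kB, and Tyk2 is the kinase on the p40-binding receptor chain. Ikbkg and Stat5a were also lower without overlap, which makes 5 of 27 against 7.45% of all tested genes. Tradd, the TNF receptor adaptor, differed by 0.19 (SE 0.11) and the abundant Stat3 by -0.03 (SE 0.07). The median transcript length of the list was 3888 nt. Once the length and GC trends were removed, 14 were lower and 13 higher, with a median of -0.01. Traf6 then differed by -0.02 and Tab2 by -0.06, without overlap, and Tyk2 by -0.10 with overlap. No gene of the list stood at an unadjusted p under 0.05 with all libraries, against 6.73% of all tested genes. When EFNA3 replicate 2 was left out 1 did, and 2 did when EFNA3 replicate 3 was.

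Other secreted cytokines were drawn from 49 genes, of which 33 had a row and 24 were tested. Of these, 15 were higher and 9 lower, with a median of 0.12, and 4 were higher without overlap against 8.53% of all tested genes. Il36a, an agonist of the IL-36 receptor, stood at 5.04, 5.03 and 5.55 in Control and at 5.76, 5.67 and 5.92 in EFNA3 libraries (log2; difference 0.58, SE 0.22). Csf3, which encodes the granulocyte factor G-CSF, stood at 5.35, 4.89 and 4.86 in Control and at 5.61, 5.63 and 5.53 in EFNA3 libraries (difference 0.55, SE 0.22). In both genes the lowest EFNA3 library lay just above the highest Control library. These 2 of 24 were the genes of the list at an unadjusted p under 0.05, against 6.73% of all tested genes. The count for the list was 1 (Csf3) when Control replicate 1 was left out and 4 when EFNA3 replicate 3 was, with neither Il36a nor Csf3 among the 4. Without Control replicate 2 or EFNA3 replicate 1 the genes counted were Lif and Tnfsf18. Il36a was still counted, and Csf3 was not, without Control replicate 3 or EFNA3 replicate 2. With the length and GC trends removed only Lif was counted. The Csf3 groups overlapped once the length and GC trends were removed (difference 0.45); Il36a had no transcript length matched by symbol. Lif differed by 0.22 (SE 0.10), and Tnfsf18, a TNF family ligand at a low level, by -0.99 (SE 0.48). The abundant genes Grn, for progranulin, at 13.34 in Control and Kitl, for stem cell factor, at 12.19 differed by 0.09 (SE 0.09) and -0.07 (SE 0.07). None of the 24 passed limma over all genes, where Il36a, Csf3, Lif and Tnfsf18 each had adjusted p = 0.55.

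**Figure D4:**
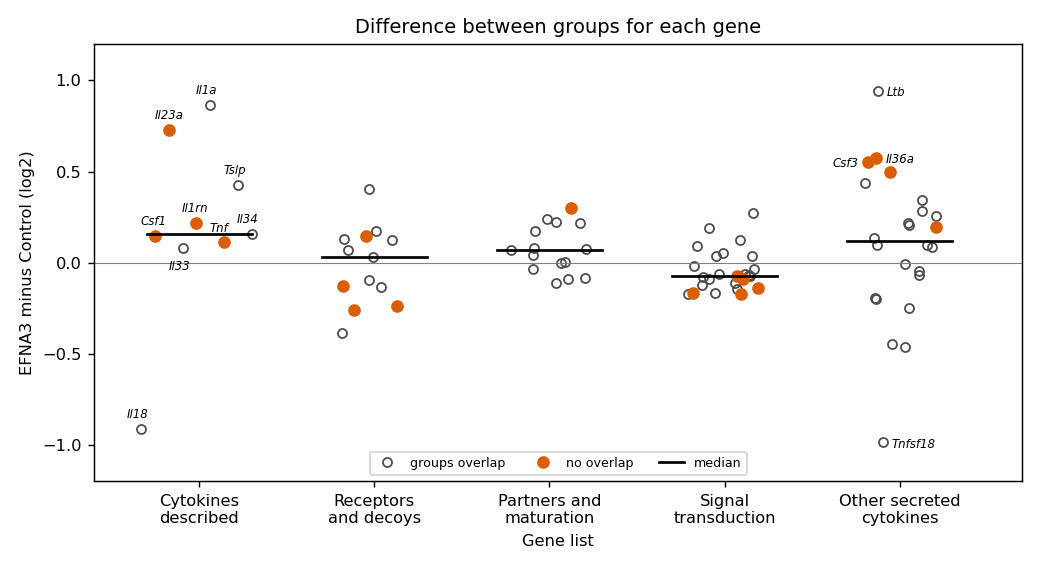
Difference in mean log2 expression between EFNA3 and Control (y axis) for each tested gene of 5 lists (x axis); orange points have no overlap between the groups, open points overlap, and bars are medians. The cytokine genes described run from -0.91 for Il18 to 0.87 for Il1a, while genes of signal transduction lie close to their median of -0.07.

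Since immune cells make several of these cytokines, their markers were read in the same libraries. In bulk RNA, fewer cells of a type and less RNA per cell cannot be told apart. Of 20 immune markers, 13 had no row in the table used here, among them Ptprc, the pan-leukocyte gene, and Adgre1 and Itgam of macrophages. A further 3 were below the limit for testing, leaving S100a8, Cd68, Cd74 and Csf1r. The summed level of the 7 markers with a row was 8.64 to 8.80 in Control and 8.80 to 9.19 in EFNA3 libraries (log2). S100a8, a neutrophil gene that epithelial cells can also express, differed by 0.38 (SE 0.15), and Cd68 by -0.13 (SE 0.15). Only S100a8 was higher without overlap, 1 of the 4 immune markers tested, against 8.53% of all tested genes. Lyz2, a lysozyme gene of myeloid cells picked after its values were seen, stood at 5.87 in EFNA3 replicate 1 and at 1.37 to 3.16 in the other libraries. Fcer1g and S100a9, the other immune markers below the limit and also named after their values were seen, went the other way. Their group means differed by -0.48 and -0.14, and S100a9 stood at 2.90 in Control and 2.76 in EFNA3 libraries. The luminal markers Epcam and Krt19 stood at 14.57 and 13.75 in Control, and the basal keratins Krt14 and Krt5 at 16.26 and 14.91 (log2), so transcripts of both mammary layers were present. Epcam at 0.17 (SE 0.09), Krt19 at 0.21 (SE 0.09) and Krt7 at 0.22 (SE 0.09) were higher with EFNA3 without overlap, and the contractile gene Mylk at -0.45 (SE 0.19) was lower without overlap; Krt7 and Mylk were picked after their values were seen. All 12 luminal markers were tested, with 8 higher, 4 lower and a median of 0.07. Of 9 basal markers 7 were tested, with 3 higher, 4 lower and a median of -0.05. The contractile genes Myh11 and Cnn1 were below the limit for testing. The 3 luminal markers higher without overlap compare with 8.53% of all tested genes, and the 1 basal marker lower without overlap with 7.45%. Summed luminal markers stood at 16.58 to 16.67 in Control and 16.65 to 16.88 in EFNA3 libraries (log2). Summed basal markers stood at 16.90 to 16.99 and 16.98 to 17.05. Fibroblast markers went both ways: 6 of 8 tested were higher, with a median of 0.36, while Pdgfra at -0.22 (SE 0.10) and Fbln1 at -0.31 (SE 0.10) were lower without overlap. These 2 of 8 compare with 7.45% of all tested genes lower without overlap, and no fibroblast marker was higher without overlap. Their summed level was 10.97 to 11.03 in Control and 10.86 to 10.99 in EFNA3 libraries, and that of endothelial markers 8.37 to 8.54 and 8.40 to 8.48 (log2). Marker differences are given without removing the length and GC trends, by which EFNA3 replicate 1 departed in transcript length. Pdgfra, of 6834 nt, stood at 9.86 in that library and at 10.15 and 10.19 in EFNA3 replicates 2 and 3. A share of the length trend in the marker differences was not tested. The part of these marker differences in the cytokine levels was not tested.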

How the data were processed

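RNA-seq of 6 libraries was available as 1 table of 19739 genes. Trim Galore, Subread, featureCounts and the mouse build mm39 are named in the submitters' processing notes; how the authors went from reads to normalized values, with which annotation and strand setting, is not given in the sources used here. Values in the deposited table were taken as log2, a base inferred from their range of -0.79 to 18.1, and as not divided by gene length. Sorted columns differed by at most 0.003, so the libraries had been brought to 1 distribution; depth is unknown, and a shift of all genes could not be seen. Columns were matched to samples by the description label.

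Genes at 3.32 (10 on the linear scale) or more in at least 3 libraries were tested, which left 16394, all 9 members with a row among them. The groups were compared with limma 3.58.1 in R 4.3.3, with a mean-variance trend, no pseudocount, no block, and two-sided Benjamini-Hochberg adjustment over all tested genes; SE values are limma's. The fit was tested on simulated data. Transcript length and GC share came from GENCODE M21 (GRCm38), by symbol, for 97.4% of the genes tested; trends were removed from each library by subtracting natural splines (5 degrees of freedom each). The members and lists were chosen with earlier results of these data known. Named were all members and, from each list, the 4 tested genes with the smallest p and the 2 with the highest Control mean, or for cell type markers only the latter; others are marked as picked after their values were seen or named only by their count. Alternatives covered the pseudocount, filter, scaling, variance model, library weights, replicate blocks, length and GC, and leaving out each library. Results of Il1b are not reported here.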

Additional observations from a re-analysis of the deposited data

How the results depend on the processing

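The differences of 8 of the 9 cytokine genes kept their sign under every alternative run that held them. The filters, median scaling, variance models and title block left each difference as it was, so these could not change a sign. Il1a, Il18, Tslp and Il34 were not tested with the filter at 50. Il34 was negative without Control replicate 2 (-0.27) and with a replicate block from the description labels (-0.35). The count of cytokine genes higher without overlap was 3 with the length and GC correction, against 8.98% of all tested genes. It was 4 to 7 as each library was left out, where the share of all tested genes also rose, to between 10.4% and 17%. No gene of the table passed limma under any alternative except the replicate block by the descriptions, with 71 genes, none of them a cytokine gene described or a gene of the 4 pathway lists; in that fit Control replicate 2 and EFNA3 replicate 2 each stand alone and add nothing to the difference. Genes at an unadjusted p under 0.05 numbered 0 among receptors without the mean-variance trend, with either replicate block, and with the length and GC correction with all libraries or without EFNA3 replicate 1. Leaving out a library gave 0 to 3 among receptors, 0 to 1 among partner and maturation genes, 0 to 2 in signal transduction and 1 to 4 among other cytokines. Without the trend, and with library weights, 1 partner or maturation gene passed. Other cytokines gave 5 with library weights, 1 with the filter at 50, 1 with the block by the titles, 0 with the block by the descriptions and 1 with the length and GC correction. The correction without EFNA3 replicate 1 and the median transcript length were chosen after seeing the data. Same-numbered libraries did not deviate together (correlations across genes of -0.11, 0.03 and -0.32 for titles 1 to 3), and 1 of 6 libraries correlated best with its own number, so the numbers were not taken as pairs. Precision is limited by 3 libraries a group and unknown depth, most of all for Il1a, Il18, Tslp and Il34.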
